A study of Mus musculus with 6 samples.

Results

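The S100, annexin and galectin gene families were followed in mouse Th9 cells, through the S100 genes S100a4, S100a6, S100a10 and S100a11, the annexin genes Anxa1, Anxa2, Anxa5 and Anxa6, and the galectin genes Lgals1 and Lgals3. The 10 genes were taken by symbol, and all 10 were among the 21233 genes of the count and FPKM tables. RNA came from 6 libraries, 3 of untreated Th9 cells (control) and 3 of Th9 cells given sorafenib, a kinase inhibitor that acts on RAF kinases and on several growth factor receptors. Th9 cells are CD4 T helper cells that secrete interleukin 9. Neither strain, age, dose nor duration of treatment is given in the sources used here, and the labels do not say whether the numbered libraries of a group were separate cultures. Each p-value therefore measures only the spread between these libraries, which may be technical.

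S100 proteins are small calcium-binding proteins that work as dimers on partner proteins. Annexins bind acidic membrane phospholipids when calcium rises, and S100A10 pairs with annexin A2 and S100A11 with annexin A1. Galectins bind beta-galactosides on glycoproteins, inside and outside the cell, and several of them act on T cell survival and signalling. In effector and memory T cells members of these families are known markers of activation and migration.

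The libraries held 36981476 to 38126521 counts, and a count of 0, taken as at most 3 counts, corresponded to an upper limit of 0.0766 to 0.0871 CPM, the counts scaled by TMM-adjusted library size. That floor covers counting error only. The T cell genes Cd4 (14957 to 19461 counts) and Cd3e (6236 to 8227 counts) and the cytokine gene Il9 (6614 to 10993 counts) were high in all 6 libraries. Control replicate 2 stood apart, with a median deviation from its group mean of 0.27 on the log2 scale over 805 genes shorter than 1000 bases, against -0.10 and -0.15 in the other control libraries. Calls of members and of other genes of the 3 families that change without that library are given with and without it. In the other lists, genes whose call changes without it are not all named.

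With sorafenib, S100a4 rose, and it was the only member to pass the test by edgeR's quasi-likelihood test at an adjusted p under 0.05 over all genes. Of the 10 genes, 8 had enough counts to be tested; 1 was called higher and 0 lower. Among all 13255 tested genes 17.9% were called, 8.51% higher and 9.43% lower, so 1 call in 8 is near that background. The split of all calls was 1128 higher and 1250 lower, and 1496 and 826 with libraries scaled by total counts only. Before adjustment, 1 member was higher and 2 were lower at p under 0.05; DESeq2 called 1 higher and 2 lower, and limma-voom 1 higher and 0 lower. The median log2 fold change (sorafenib minus control) of the 8 tested members was -0.18, beside -0.01 for all tested genes. Fewer cells of a type and less RNA per cell cannot be told apart in these bulk samples.

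Compared per gene length, the members fell into an abundant and a scarce set. In control cells mean FPKM (fragments scaled by gene length and library total) was 447 ± 43.6 for Anxa2, 382 ± 55.3 for Lgals1 and 337 ± 51.9 for S100a10 (SD, n = 3 here and below). These genes ranked between 143rd and 187th of 21233 in every library. S100a11 (101 ± 14.7 FPKM) and Anxa6 (89.97 ± 3.10 FPKM) came next, then Lgals3 (49.4 ± 8.12 FPKM) and Anxa5 (42.5 ± 3.58 FPKM). In control cells the ranges of Anxa2 and Lgals1 overlapped, as did those of Lgals1 and S100a10, of S100a11 and Anxa6, and of Lgals3 and Anxa5, whereas S100a10 lay above S100a11 and Anxa6 above Lgals3 with no overlap. S100a4 followed at 1.55 ± 0.0821 FPKM, Anxa1 at 0.191 ± 0.195 FPKM and S100a6 at 0.0149 ± 0.0259 FPKM. In sorafenib cells the order of the means changed at a pair of places: Anxa6 (97.8 ± 2.06 FPKM) lay above S100a11 (94.8 ± 2.13 FPKM), with overlapping ranges, and Anxa5 (47.2 ± 0.0451 FPKM) lay above Lgals3 (40.8 ± 1.07 FPKM), with ranges that did not overlap.

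**Figure D1:**
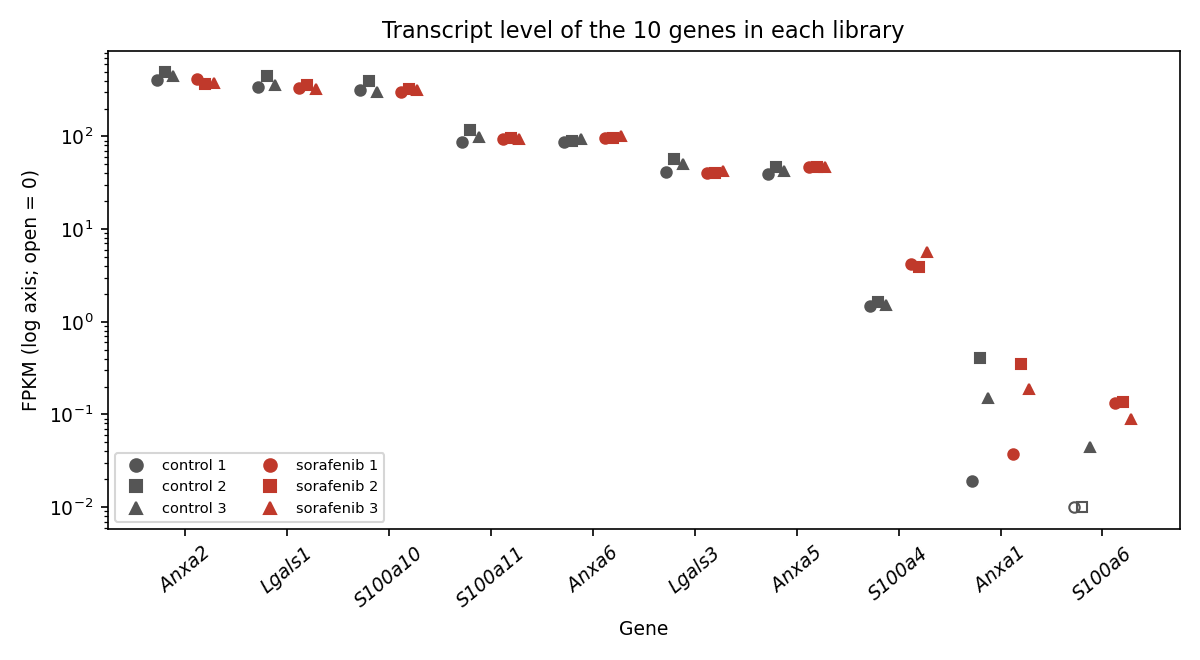
FPKM of each of the 10 genes (log axis) in the 3 control libraries (grey) and the 3 sorafenib libraries (red), with marker shape giving the replicate number and open markers, drawn at the foot of the axis, standing for a value of 0. Anxa2, Lgals1 and S100a10 lie highest, S100a4 is higher in all sorafenib libraries, and Anxa1 and S100a6 lie near 0.

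S100a4, also called metastasin, binds non-muscle myosin IIA and is a marker of motile and memory T cells. It had 0.884, 1.07 and 0.932 CPM in the control libraries and 2.52, 2.29 and 3.34 CPM in the sorafenib libraries. Every sorafenib library lay above every control library. The rise was 2.82-fold (log2 fold change 1.50 ± 0.25 SE, adjusted p = 0.00244). The level was low, with 33 to 37 counts in control and 88 to 131 in sorafenib libraries. S100a4 passed under all 17 alternatives tried, with adjusted p from 1.43e-05 to 0.0226. Without control replicate 2 its log2 fold change was 1.58 ± 0.29 SE.

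The 250 bases before the RefSeq start site of S100a4 are shown because this is the member that changed (RefSeq, GRCm38.p6, chr3:90603520-90603769, plus strand, 5′ to 3′; capitals would mark a searched motif). A stretch just after this start was looked for in reference transcripts of S100a4. It was not found unbroken in any, so the start was not borne out by them. The motifs searched on both strands were the AP-1 site TGANTCA, the GC box GGGCGG and the STAT site TTCNNNGAA, and no 2 matches shown overlapped. Of 32817 RefSeq promoter windows of that length, 6.75% held the AP-1 letters, 32.7% the GC box and 7.01% the STAT letters. The S100a4 window held none of them, which says only that these letters are not in this stretch.
S100a4: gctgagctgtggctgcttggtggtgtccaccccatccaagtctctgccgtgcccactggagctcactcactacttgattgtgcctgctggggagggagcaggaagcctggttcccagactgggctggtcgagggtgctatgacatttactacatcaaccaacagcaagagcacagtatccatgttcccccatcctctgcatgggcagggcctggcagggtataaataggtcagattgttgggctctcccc

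S100a6 (calcyclin) lies in the same chromosome 3 cluster. It had 0, 0 and 1 counts in the control libraries and 3, 3 and 2 in the sorafenib libraries. All values lay at or under the floor of 3 counts, so no fold is given. The table also holds a separate feature named S100a6-s100a7a, with 0 to 4 counts. The sources used here do not say how reads matching both features were assigned, and the S100a6 counts are uncertain. S100a6 was not tested after the filter on low counts; without a filter edgeR gave an adjusted p of 0.342 and log2(FPKM + 1) an adjusted p of 0.0372.

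S100a10, which pairs with annexin A2 and whose EF hands do not bind calcium, had 202, 279 and 196 CPM in control and 191, 206 and 199.6 CPM in sorafenib libraries. Control replicate 2 was the highest of the 6 and the other libraries of both groups overlapped. Its log2 fold change was -0.19 ± 0.12 SE (adjusted p = 0.34), and 0.00 ± 0.05 SE without control replicate 2 (adjusted p = 0.975). S100a11, a partner of annexin A1, had 43.7, 63.8 and 50.3 CPM in control and 46.1, 47.4 and 45.97 CPM in sorafenib libraries. Its groups overlapped too (log2 fold change -0.18 ± 0.12 SE, adjusted p = 0.361), and without control replicate 2 the value was -0.01 ± 0.07 SE.

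Anxa1, the glucocorticoid-induced annexin that signals through formyl peptide receptors, had 1, 21 and 8 counts in control replicates 1, 2 and 3, and 2, 18 and 10 in sorafenib replicates 1, 2 and 3. The libraries of each group differed more than the group means, which were 0.283 ± 0.298 CPM without and 0.259 ± 0.209 CPM with sorafenib. It did not pass the filter on low counts and was not tested; where an alternative did test it, the adjusted p was 0.643 or more.

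Anxa2, which forms a complex with S100A10 at the plasma membrane, was the most abundant member. It had 573, 763 and 649.9 CPM in control and 583, 509 and 529.9 CPM in sorafenib libraries. Sorafenib replicate 1 lay above control replicate 1, so the groups overlapped. The log2 fold change was -0.29 ± 0.11 SE and did not pass (adjusted p = 0.0952). Anxa2 was called lower under 4 of 17 alternatives, which were the fit with no filter, DESeq2, and the fits that left out control replicate 1 (adjusted p = 0.0272) or control replicate 2 (-0.18 ± 0.06 SE, adjusted p = 0.0461).

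The promoter windows of Anxa2 and S100a11 are shown because they were the only members with AP-1 letters, out of 7 of the 10 genes with a window in the RefSeq table; S100a10, Anxa6 and Lgals1 had no entry. Anxa2 lies at chr9:69453433-69453682 and S100a11 at chr3:93520246-93520495, both on the plus strand of GRCm38.p6, and capitals mark AP-1 letters and GC boxes. The Anxa2 window held 1 AP-1 match and 3 GC boxes and that of S100a11 held 2 AP-1 matches and 3 GC boxes. In all, 3 of the 7 windows held a GC box and none a STAT match. Neither gene passed the test.
Anxa2: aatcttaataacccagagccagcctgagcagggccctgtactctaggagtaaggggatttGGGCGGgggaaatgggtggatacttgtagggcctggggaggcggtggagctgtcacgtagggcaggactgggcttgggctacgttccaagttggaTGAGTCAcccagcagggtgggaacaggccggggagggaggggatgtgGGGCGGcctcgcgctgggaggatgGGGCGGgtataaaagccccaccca
S100a11: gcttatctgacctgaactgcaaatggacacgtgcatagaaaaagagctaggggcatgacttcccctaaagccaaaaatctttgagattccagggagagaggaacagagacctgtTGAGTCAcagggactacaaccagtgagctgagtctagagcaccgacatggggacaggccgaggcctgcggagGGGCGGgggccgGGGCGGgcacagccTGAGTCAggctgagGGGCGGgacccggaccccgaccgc

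Anxa5, the phosphatidylserine binder used to stain dying cells, had 66.8, 86.4 and 73.1 CPM in control and 79.7, 78.9 and 79.2 CPM in sorafenib libraries. The sorafenib values lay inside the control range (log2 fold change 0.07 ± 0.09 SE, adjusted p = 0.656). Without control replicate 2 it was called higher, at 0.18 ± 0.06 SE (adjusted p = 0.0266). Anxa6, the annexin with a duplicated core that acts in membrane trafficking, had 230.02, 260.2 and 250.5 CPM in control and 253, 249.6 and 260.2 CPM in sorafenib libraries. Its groups overlapped, with a log2 fold change of 0.04 ± 0.07 SE (adjusted p = 0.741). On the FPKM scale every sorafenib library lay above every control library for both genes, at 47.2 to 47.3 against 39.1 to 46.2 for Anxa5 and at 96.6 to 100.2 against 86.9 to 93.1 for Anxa6. Neither passed there (log2(FPKM + 1) with a filter, limma, adjusted p = 0.158 and 0.176). Genes in general stood higher with sorafenib on that scale. In that fit the median log2 fold change over all genes was 0.0538, beside -0.0106 in the edgeR fit. Its calls were 1398 higher and 744 lower. How many of all genes separate in this way on the FPKM scale was not counted.

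Lgals1, a secreted galectin that can induce T cell death and restrains effector responses, had 273, 386 and 287 CPM in control and 259, 278 and 251 CPM in sorafenib libraries. Sorafenib replicate 2 exceeded control replicate 1, and the log2 fold change was -0.26 ± 0.12 SE (adjusted p = 0.165). It was -0.09 ± 0.06 SE without control replicate 2. Lgals3, the chimeric galectin that cross-links N-glycans on the T cell surface, had 56.9, 86.9 and 71.4 CPM in control and 54.9, 55.4 and 57.5 CPM in sorafenib libraries. It had the lowest log2 fold change of the members, -0.36 ± 0.13 SE, which did not pass (adjusted p = 0.0802). Sorafenib replicate 3 lay above control replicate 1. Lgals3 was called lower by DESeq2 (adjusted p = 0.0405) and with control replicate 1 left out (adjusted p = 0.00652). It was at -0.20 ± 0.08 SE without control replicate 2 (adjusted p = 0.0709).

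**Figure D2:**
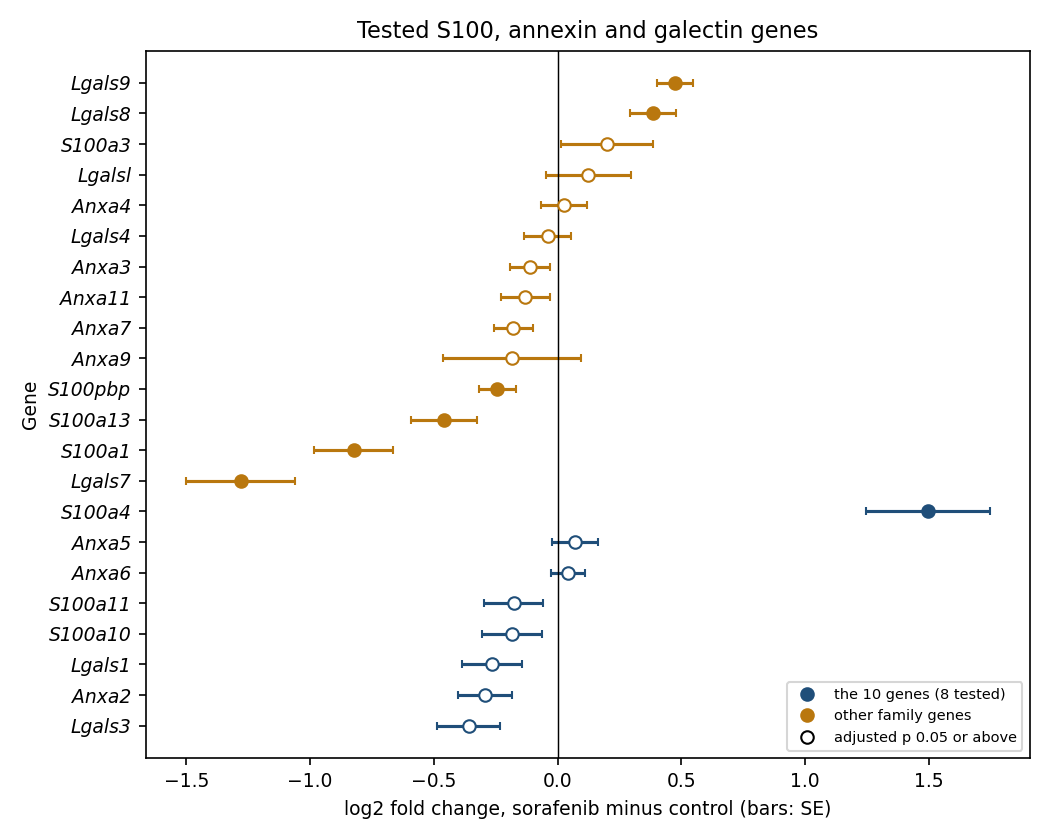
Log2 fold change, sorafenib minus control, with SE bars for the 8 tested members (blue) and 14 other tested genes of the families (ochre); filled points passed the adjusted p threshold of 0.05. Of the members S100a4 alone is filled, at 1.50, and the others lie between -0.36 and 0.07.

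The members moved together between control libraries more than between sorafenib libraries. In control replicate 2 all 8 tested members lay above their group mean, by 0.08 (Anxa6) to 0.32 (S100a10) on the log2 scale. In control replicate 1 all 8 lay below it, by up to 0.31 in Lgals3. Deviations from a group mean cancel within the group, so these low values follow in part from the high ones in control replicate 2. How many of all genes shared these signs was not counted. In sorafenib libraries the 7 members other than S100a4 stayed within 0.11 of their group mean. The effective gene lengths of S100a4 (605 bases), S100a10 (650 bases), S100a11 (504 bases) and Lgals1 (800 bases) put them among the 805 short genes. The median of those genes was high in control replicate 2. Anxa2 (1437 bases) and Lgals3 (1406 bases) are longer and were high there as well, by 0.22 and 0.30. The part of this library in the members' differences is given by the values without it above.

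**Figure D3:**
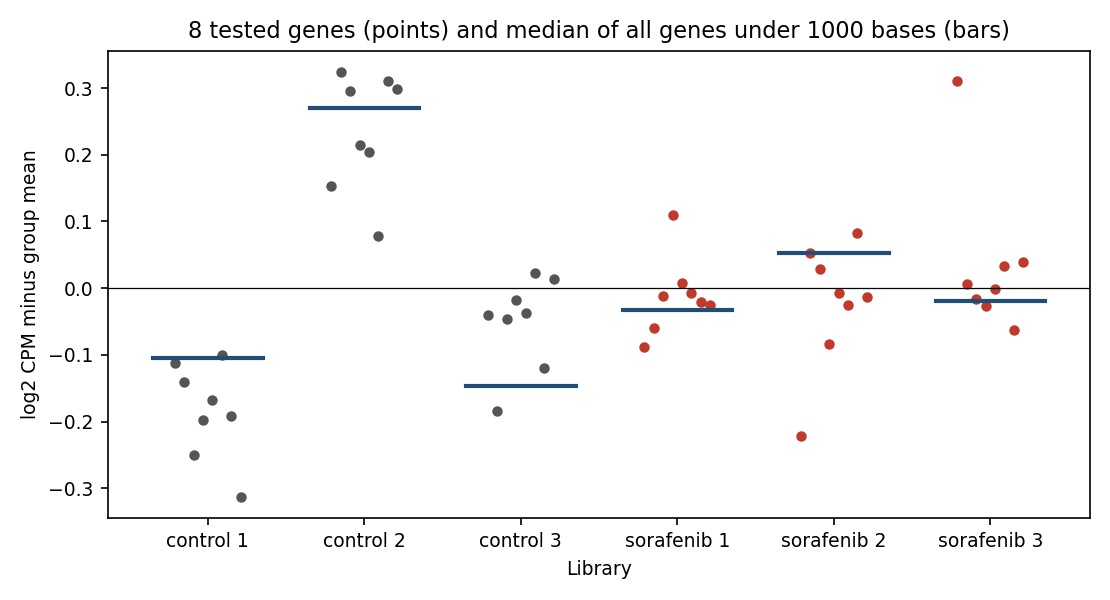
Log2 CPM minus the group mean for the 8 tested members in each library (points, left to right S100a4, S100a10, S100a11, Anxa2, Anxa5, Anxa6, Lgals1, Lgals3) and the median over all 805 tested genes under 1000 bases (blue bars). All 8 points lie above 0 in control 2 and below 0 in control 1; in sorafenib libraries only S100a4 departs by more than 0.11.

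Within a library the ratio of partner genes does not depend on how libraries are scaled. A deviation that goes with gene length, like that of short genes in control replicate 2, does not cancel in it. The genes of each ratio differ in length. The FPKM ratio of Anxa2 to S100a10 was 1.28, 1.24 and 1.50 in control and 1.38, 1.12 and 1.20 in sorafenib libraries. The difference of its log2 was -0.12, and the groups overlapped (exact two-sided permutation test, p = 0.4, adjusted p = 0.6). The ratio of Lgals1 to Lgals3 was 8.43, 7.82 and 7.06 in control and 8.27, 8.82 and 7.68 in sorafenib libraries (exact two-sided permutation test, p = 0.5, adjusted p = 0.6). Anxa1 to S100a11, resting on few Anxa1 counts, gave p = 0.6 in the same exact test. These were 3 ratios, and 3 against 3 libraries cannot give a p below 0.1. No ratio of S100a4 to S100a6 is given, since S100a6 was 0 in 2 control libraries. Summed FPKM over the S100 members was 439 ± 64.96 in control and 414 ± 15.8 in sorafenib cells, over the annexins 579.7 ± 48.9 and 531 ± 24.0, and over the galectins 431 ± 62.5 and 378 ± 18.8; each pair of ranges overlapped.

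The genes most like S100a4 over the 6 libraries, by the root mean square difference of centred log2 CPM among 8760 genes, were Tmem176b (0.156), Fgl2 (0.178) and Zfp365 (0.195). Tmem176b averaged 18.1 ± 2.38 CPM without and 50.97 ± 1.88 CPM with sorafenib. The genes most like Lgals3 were Ryk (0.0636), Sccpdh (0.0648) and Tmem60 (0.0653), none of which passed the test. Ryk averaged 13.2 ± 2.21 CPM without and 10.6 ± 0.667 CPM with sorafenib. All these genes were picked for likeness over the same 6 libraries, so a group difference like that of the member follows from the choice.

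Other genes of the 3 families were counted from lists of 30 symbols, of which 23 were present and 14 were tested. Of the tested genes 2 rose and 4 fell. The background for these counts, and for the list counts below, is the 17.9% of all tested genes called, 8.51% higher and 9.43% lower. In the S100 list 3 of 4 tested fell and 0 rose (DESeq2 and limma-voom gave 3 and 0 as well, and 3 had an unadjusted p under 0.05). S100a1, known for its role in muscle calcium handling, had 6.48, 8.33 and 6.31 CPM in control and 3.65, 4.41 and 3.85 CPM in sorafenib libraries, a 1.77-fold fall (log2 fold change -0.82 ± 0.16 SE, adjusted p = 0.00525). S100a13, which takes part in the non-classical export of growth factors, had 35.4, 46.2 and 31.4 CPM in control and 28.2, 29.0 and 25.0 CPM in sorafenib libraries. It fell 1.37-fold (adjusted p = 0.0368), a call lost under 9 of 17 alternatives. Its log2 fold change was -0.46 ± 0.13 SE, and -0.28 ± 0.09 SE without control replicate 2 (adjusted p = 0.0161). S100pbp, whose product binds an S100 protein and is not one itself, fell 1.18-fold (adjusted p = 0.0481), a call lost under 13 of 17. S100a3 averaged 2.94 ± 0.221 CPM without and 3.38 ± 0.545 CPM with sorafenib (adjusted p = 0.515).

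S100a1 and S100a13 are transcribed away from each other, and the stretch between their RefSeq start sites is shown because both fell. These RefSeq starts lie 105 bases apart, and the 104 bases between them (GRCm38.p6, chr3:90514331-90514434, plus strand) held none of the 3 motifs. A stretch just after the S100a1 start was found in a reference transcript of that gene. For S100a13 it was not found unbroken, so that start was not borne out.
S100a1 and S100a13: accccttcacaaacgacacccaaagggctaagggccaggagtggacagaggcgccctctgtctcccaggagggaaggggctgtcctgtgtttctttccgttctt

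Among galectins, 2 rose and 1 fell of 5 tested. Lgals9, a ligand of the inhibitory receptor TIM-3, had 44.9, 50.3 and 50.8 CPM in control and 67.9, 66.9 and 68.2 CPM in sorafenib libraries. The groups did not overlap and the rise was 1.39-fold (log2 fold change 0.48 ± 0.07 SE, adjusted p = 0.00152). Lgals8, a tandem-repeat galectin that detects damaged endosomes, had 12.4, 12.4 and 11.9 CPM in control and 16.8, 15.9 and 15.3 CPM in sorafenib libraries, a 1.31-fold rise (adjusted p = 0.0156). That call was lost without control replicate 3 and without any 1 of the sorafenib replicates (adjusted p up to 0.0793). Lgals7, best known from stratified epithelium, had 3.46, 4.76 and 3.60 CPM in control and 1.85, 1.69 and 1.30 CPM in sorafenib libraries, a 2.43-fold fall (adjusted p = 0.0028). Lgals4 (16.1 ± 0.647 CPM without and 15.6 ± 1.20 CPM with sorafenib, adjusted p = 0.825) and Lgalsl (3.82 ± 0.642 and 4.16 ± 0.208 CPM, adjusted p = 0.683) did not pass.

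**Figure D4:**
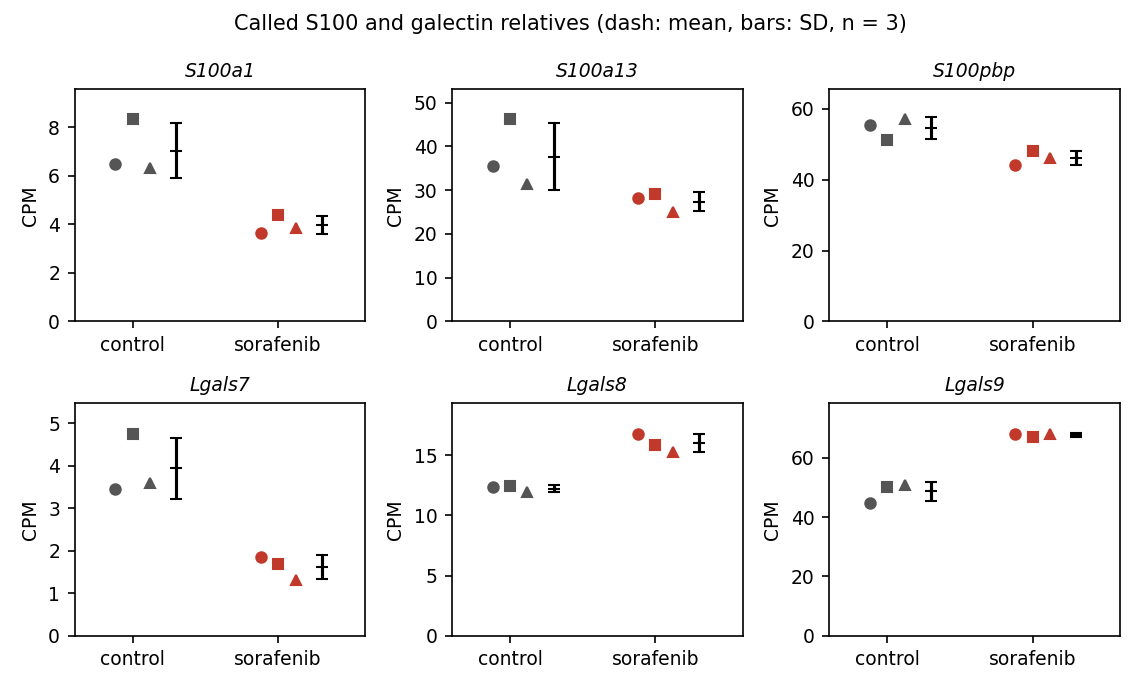
CPM of the 6 called relatives in each library, control in grey and sorafenib in red, with marker shape for the replicate number and a dash with bars for the mean and SD of 3 libraries. Lgals8 and Lgals9 lie higher, and S100a1, S100a13, S100pbp and Lgals7 lower, in all sorafenib libraries.

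Among other annexins 0 of 5 tested were called by edgeR, DESeq2 or limma-voom, with 1 at an unadjusted p under 0.05. Anxa7 had 94.4, 113 and 104 CPM in control and 93.8, 88.0 and 93.5 CPM in sorafenib libraries (adjusted p = 0.158). Anxa11, which links RNA granules to lysosomes, averaged 89.2 ± 5.69 CPM without and 81.5 ± 10.98 CPM with sorafenib (adjusted p = 0.422). Anxa3 (30.01 ± 1.70 and 27.8 ± 0.77 CPM, adjusted p = 0.387) and Anxa4 (34.6 ± 3.48 and 35.2 ± 2.13 CPM, adjusted p = 0.885) did not pass. Anxa9 ranged from 2.23 to 5.73 CPM in control and from 3.65 to 3.76 CPM in sorafenib libraries (log2 fold change -0.18, adjusted p = 0.712). Control replicate 2 was its lowest library, and without it Anxa9 was called lower, at -0.48 ± 0.17 SE (adjusted p = 0.0431). Anxa13 had 0 counts in every control library and 11, 1 and 0 in sorafenib libraries, and was not tested.

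Partners and receptors of S100 proteins and annexins numbered 18 tested genes, of which 2 rose and 2 fell, with a median log2 fold change of 0.18. Dysf, encoding the membrane repair protein dysferlin, fell 2.32-fold, from 22.2 ± 2.15 to 9.55 ± 1.22 CPM (adjusted p = 0.00011), and its relative Myof fell 2.89-fold, from 13.4 ± 3.54 to 4.65 ± 1.37 CPM. Myh9, the heavy chain of non-muscle myosin IIA, rose 1.41-fold, from 711 ± 97.1 to 1000.4 ± 13.5 CPM (adjusted p = 0.00874). Its lowest library was control replicate 2, at 609 CPM against 803 and 721 CPM in the other control libraries. The log2 fold change was 0.49, and 0.39 without that library, where Myh9 was still called. Leaving out sorafenib replicate 3 ended that call (adjusted p = 0.05498), as did unfiltered log2(FPKM + 1), which also ended the call of Myof. Plgrkt, a plasminogen receptor, rose 1.25-fold (adjusted p = 0.0253), a call lost under 4 of 17 alternatives. Ahnak, which binds the S100A10 and annexin A2 complex, averaged 539 ± 128 CPM without and 728 ± 29.3 CPM with sorafenib (adjusted p = 0.0671). Control replicate 2 was its lowest library, at 408 CPM against 664 and 546 CPM in the other control libraries. Its fit without that library is not given here.

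Galectin ligands and glycan enzymes held 25 tested genes, with 2 rising and 2 falling and a median log2 fold change of -0.04. Mgat5, which builds the branched N-glycans that galectin 3 binds, rose 1.93-fold, from 25.02 ± 2.82 to 48.2 ± 3.08 CPM (adjusted p = 0.000135). Gcnt2, which branches polylactosamine chains, fell 2.15-fold, from 40.2 ± 1.87 to 18.8 ± 3.26 CPM. The T cell adhesion molecule Cd2 fell 1.50-fold, and Cd44, a hyaluronan receptor, rose 1.26-fold (adjusted p = 0.0188), a call lost under 4 of 17 alternatives. Of 33 tested cytoskeleton and adhesion genes of effector and memory T cells, 8 rose and 1 fell, with a median of 0.03. Lsp1, a leukocyte actin-binding protein, rose 2.22-fold, from 86.9 ± 10.5 to 193 ± 18.3 CPM, Lmna rose 2.12-fold, Crip2 1.80-fold and Tagln2 1.33-fold. The intermediate filament gene Vim averaged 3706 ± 362 CPM without and 3525 ± 139.8 CPM with sorafenib (adjusted p = 0.714).

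Several of these genes are also high in myeloid cells, so markers of other cells are given beside the S100a4 and galectin values. Of 16 macrophage, monocyte and dendritic cell markers in the files, 5 were tested, and Flt3 was the 1 called, as higher. Of the 5 tested, 3 had an unadjusted p under 0.05, and the median log2 fold change was 0.99. The summed level of the 16 was 8.07 to 11.96 CPM in control and 13.9 to 14.3 CPM in sorafenib libraries. Most of it was Cd68 and Flt3, and Flt3 averaged 2.25 ± 0.471 CPM without and 5.25 ± 0.867 CPM with sorafenib. Csf1r had 0 counts in every control library and 0 to 2 in sorafenib libraries, Lyz2 had 3 to 10 and 5 to 9, and C1qc had at most 1 in any library. The macrophage marker Adgre1 had 7 to 11 counts in control and 18 to 27 in sorafenib libraries (adjusted p = 0.12), and the Fc receptor gene Fcgr3 had 8 to 15 and 21 to 27 (adjusted p = 0.126). Itgam, an integrin of myeloid cells, had 2 to 5 and 9 to 18 counts and was not tested. For these 3 genes every sorafenib library lay above every control library, but they were named after their values were seen and none was called. How many of all genes separate in this way was not counted. Cd68, another macrophage marker, averaged 6.72 ± 1.76 CPM without and 6.45 ± 1.03 CPM with sorafenib, with overlapping groups (adjusted p = 0.884). Of 8 neutrophil markers in the files, 3 of 4 tested fell, with sums of 10.5 to 12.5 CPM in control and 2.97 to 3.40 CPM in sorafenib libraries; Ly6g had 120 to 125 counts in control and 0 to 2 in sorafenib libraries, and Elane, Ltf and Ngp had at most 2 in any. The neutrophil S100 genes S100a8 and S100a9 were not analysed here. Of 9 B cell markers 5 of 6 tested rose and Ebf1 fell, with sums of 26.7 to 33.9 and 33.2 to 34.99 CPM and at most 2 counts of Ms4a1 in any library. Among 15 stromal, endothelial and epithelial markers 4 of 7 tested fell, with sums of 57.8 to 61.96 and 29.9 to 31.6 CPM, Pecam1 making up most of them, and Krt8 at 0 in control. Of 2 tested mast cell and basophil markers, 0 were called by edgeR, DESeq2 or limma-voom, and 0 had an unadjusted p under 0.05. Of 12 tested T cell markers 6 fell, Cd2 and Cd28 (1.46-fold) among them. Of 8 Th9 genes 5 rose, among them Etv5 (2.03-fold), a transcription factor of Th9 cells, and Il9 (1.39-fold). The others were not called: Irf4 (log2 fold change -0.22, adjusted p = 0.153), Batf (0.10, adjusted p = 0.541) and Spi1 (0.75, adjusted p = 0.2). The part of other cell types in the S100a4 and galectin results was not tested.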

How the data were processed

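Gene counts and FPKM of 6 libraries (3 control, 3 sorafenib, grouped by sample titles) were used. The submitters' processing notes name HTSeq, HISAT2, fastp, DESeq2 and R 3.2.0, and the build GRCm39; the sources used here do not give their roles or the strand setting, and counts of close copies and overlapping genes are uncertain. The authors deposited whole-number counts, and FPKM values scaled by library total and gene length, which gave the effective lengths. Counts passing filterByExpr (13255 genes) were TMM-scaled and tested with edgeR 4.0.16 in R 4.3.3 (quasi-likelihood F test, robust, group only, 4 residual degrees of freedom), with Benjamini-Hochberg adjustment over these genes. SE came from the F statistic. Alternatives were other size factors and filters, leaving out each library, a replicate block, DESeq2 1.42.0, and limma 3.58.1 (voom, or log2(FPKM + 1) and log2(FPKM + 0.1), unfiltered or with mean FPKM of at least 0.5). The genes named were all members, tested relatives, up to 4 called genes per other list (2 by p where none was called), the 3 genes most like the members with the largest rise and fall (mean log2 CPM of at least 3), and markers at or near 0. Cd4, Cd3e, Ahnak, Vim, Anxa13, Adgre1, Fcgr3, Itgam, Cd68, Irf4, Batf and Spi1 fall outside this rule and were named after their values were seen. Members and lists were chosen with earlier results of these data known. Promoters came from RefSeq tables of GRCm38.p6, the files using GRCm39.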

Additional observations from a re-analysis of the deposited data

How the results depend on the processing

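S100a4, S100a1, Lgals7 and Lgals9 passed in the same direction under all 17 alternatives. The number of members called, 1, was 2 with no filter (adding Anxa2), 3 by DESeq2 (adding Anxa2 and Lgals3), 2 on unfiltered log2(FPKM + 1) (adding S100a6, at or under 3 counts), and 1 to 3 with a library left out. The 6 called relatives became 3 to 7 with a library left out. Of all genes 2378 were called, 1423 on unfiltered log2(FPKM + 1) and 1243 (without sorafenib replicate 3) to 4325 (without control replicate 2) with a library left out. With a replicate block 2139 genes and 1 member (S100a4) were called; no paired design is stated, same-numbered libraries had correlated deviations of -0.0627, 0.152 and 0.102, and not every library correlated best with its own number. Signs turned only for values that had not passed: Lgals4 (-0.04) was at 0.0336 with total counts only and 0.0321, 0.0321 and 0.0342 in the 3 FPKM fits, and leaving out libraries gave -0.0794 to 0.0281 for Lgals4, -0.0104 to 0.183 for Anxa5, -0.00828 to 0.0832 for Anxa6, -0.0384 to 0.108 for Anxa4, -0.479 to 0.112 for Anxa9, -0.000614 to 0.217 for Lgalsl and -0.69 to 1.35 for the log2 ratio of Anxa1 to S100a11. Over all alternatives the calls ranged from 1 to 3 in other S100 genes (3 as reported), 0 to 1 in other annexins (0), 2 to 10 in partners and receptors (4), 3 to 8 in galectin ligands and glycan enzymes (4), 4 to 15 in cytoskeleton genes (9), 3 to 8 in T cell markers (6) and 3 to 6 in B cell markers (6); the highest values for annexins, partners, ligands, cytoskeleton genes and T cell markers came without control replicate 2. Beyond construction, the cause was not tested. S100a6 and Anxa1, at 0 to 21 counts, were too low to test; whether depth or read assignment limits S100a6 was not tested.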
